A study of Homo sapiens with 12 samples.

Results

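The Polycomb genes described here are 10 subunits of the Polycomb repressive complexes, EZH2, EZH1, EED, SUZ12, JARID2, RBBP7, BMI1, RNF2, CBX2 and CBX7. They were picked by symbol from 13820 genes with counts, by a rule that uses no measured value but was written with earlier results of these data known, and all 10 passed the filter on low counts that left 12602 genes for testing. RNA of Z-138, an established line from mantle cell lymphoma, was measured in 12 libraries with Lexogen QuantSeq, a method that sequences mRNA from its 3' end. Every group was grown with doxycycline. The control groups carried a control shRNA and the knockdown groups an shRNA against SMARCA4, a catalytic subunit of SWI/SNF chromatin remodellers. Treatment was DMSO, or ibrutinib and venetoclax together at 3 µM each, called drug from here on. Ibrutinib inhibits the kinase BTK and venetoclax the survival protein BCL2. Each of the 4 groups had 3 replicates, which the labels do not describe as separate cultures, so p-values measure only the spread between these libraries. The labels do not say how many shRNA constructs were used, so an effect of losing SMARCA4 and an effect of the shRNA construct cannot be told apart. How long treatment lasted is not stated in the labels. The series' design text states that the study examined SMARCA4 knockdown and the response to the drug pair.

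Polycomb repressive complex 2 (PRC2) methylates histone H3 at lysine 27, a mark of silenced genes. EZH2 or EZH1 carries the catalytic site, EED and SUZ12 are needed for activity, RBBP7 or its paralog RBBP4 binds histones, and JARID2 is an accessory subunit that helps bring the complex to chromatin. Polycomb repressive complex 1 (PRC1) adds ubiquitin to histone H2A through RNF2 or RING1, held by a PCGF protein such as BMI1. In canonical PRC1 a CBX protein, among them CBX2 and CBX7, binds the methylated lysine. SWI/SNF remodellers are known to oppose Polycomb at many genes, and EZH2 is high in dividing germinal centre B cells and in many B cell lymphomas.

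SUZ12, CBX7 and RBBP7 differed between the shRNAs in both treatments, and their promoters are shown for that reason. RefSeq (GRCh38.p14) windows of the 250 bases before a transcription start were matched by symbol for 9 of the 10 members, 13 windows in all. Each sequence below runs 5′ to 3′ on the gene's strand, and capitals mark a CCAAT box (CCAAT, either strand) or an E2F-type motif (TTTCCCGC, TTTGGCGC, TTTCGCGC or TTTGCCGC, either strand).
SUZ12, chr17:31936757-31937006, plus strand: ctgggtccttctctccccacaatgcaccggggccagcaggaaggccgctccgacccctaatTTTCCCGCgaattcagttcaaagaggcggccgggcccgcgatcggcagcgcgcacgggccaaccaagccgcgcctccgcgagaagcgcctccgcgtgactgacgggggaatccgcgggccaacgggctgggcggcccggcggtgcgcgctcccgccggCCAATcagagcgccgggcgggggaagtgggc
CBX7, chr22:39152681-39152930, minus strand: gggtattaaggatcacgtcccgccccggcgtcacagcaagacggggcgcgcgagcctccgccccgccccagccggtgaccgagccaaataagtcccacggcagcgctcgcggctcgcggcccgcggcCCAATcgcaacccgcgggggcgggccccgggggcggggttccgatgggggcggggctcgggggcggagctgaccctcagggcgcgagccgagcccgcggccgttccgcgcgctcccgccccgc
RBBP7, chrX:16870363-16870612, minus strand: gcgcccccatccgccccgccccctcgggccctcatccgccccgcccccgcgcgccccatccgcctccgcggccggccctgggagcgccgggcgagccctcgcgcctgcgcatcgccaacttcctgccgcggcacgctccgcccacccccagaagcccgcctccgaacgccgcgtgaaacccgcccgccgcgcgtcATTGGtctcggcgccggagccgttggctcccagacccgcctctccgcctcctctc
RBBP7 has a second window, not printed, which also holds a CCAAT box. The CCAAT box was present in 7 of the 13 member windows (of CBX7, EED, EZH2, JARID2, RBBP7 and SUZ12) and in 32% of all 35116 windows. An E2F-type motif was found in 2 member windows, those of EZH1 and SUZ12, and in 2.79% of all windows, and in SUZ12 it lies upstream of the CCAAT box. The GC box (GGGCGG, either strand) was found in 12 member windows, all except that of EED, and in 42.6% of all windows. Member windows ranged from 51.2% to 91.6% GC, against a median of 58% over all windows. All 3 windows printed hold a CCAAT box, although SUZ12 and RBBP7 fell in knockdown cells and CBX7 rose. A match is a description of these letters and not evidence of binding.

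SMARCA4 itself, the target of the shRNA, stood at 577, 599 and 555 CPM in control DMSO libraries and at 177, 174 and 159 with knockdown. CPM are counts relative to library size, here with TMM (trimmed mean of M values) scaling factors. Under drug it stood at 588, 600 and 642 in control and 167, 174 and 184 in knockdown libraries. The log2 fold change was -1.77 (SE 0.06) in DMSO and -1.80 (SE 0.06) under drug, and no library went against its label. Library totals ran from 7279503 to 10151679 counts except in SMARCA4 knockdown DMSO replicate 3, which had 22528537. Ribosomal RNA rows held 8.86% to 9.47% of counts in control DMSO, 10.0% to 11.1% in knockdown DMSO, 10.2% to 10.8% in control drug and 7.20% to 8.98% in knockdown drug libraries, and their part in the results was not tested beyond leaving those rows out.

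All 10 Polycomb genes were expressed in every library, and their summed level was nearly level across groups. Summed levels, here and for other lists, are CPM of library totals without TMM factors. The sum ran from 942 to 981 CPM in control DMSO, 950 to 965 in knockdown DMSO, 932 to 981 in control drug and 961 to 1040 in knockdown drug libraries. TMM factors, which these sums leave out, were 0.959 to 0.983 in control drug and 1.02 to 1.05 in knockdown drug libraries. QuantSeq counts 1 site per transcript, so CPM was not divided by gene length, and unequal capture between genes was not measured. In control DMSO libraries EZH2 came first at 188.5 ± 4.05 CPM (SD, n = 3), followed by CBX2 at 174.8 ± 6.19, SUZ12 at 167 ± 5.15 and RBBP7 at 154.5 ± 11.2. The middle ranks were JARID2 at 75.2 ± 1.29, EED at 66.5 ± 2.57, BMI1 at 47.6 ± 3.24 and EZH1 at 47.3 ± 5.02. RNF2 at 24.2 ± 2.07 and CBX7 at 24.1 ± 3.20 were lowest. Libraries overlapped between the neighbours CBX2 and SUZ12, SUZ12 and RBBP7, BMI1 and EZH1, and RNF2 and CBX7.

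**Figure D1:**
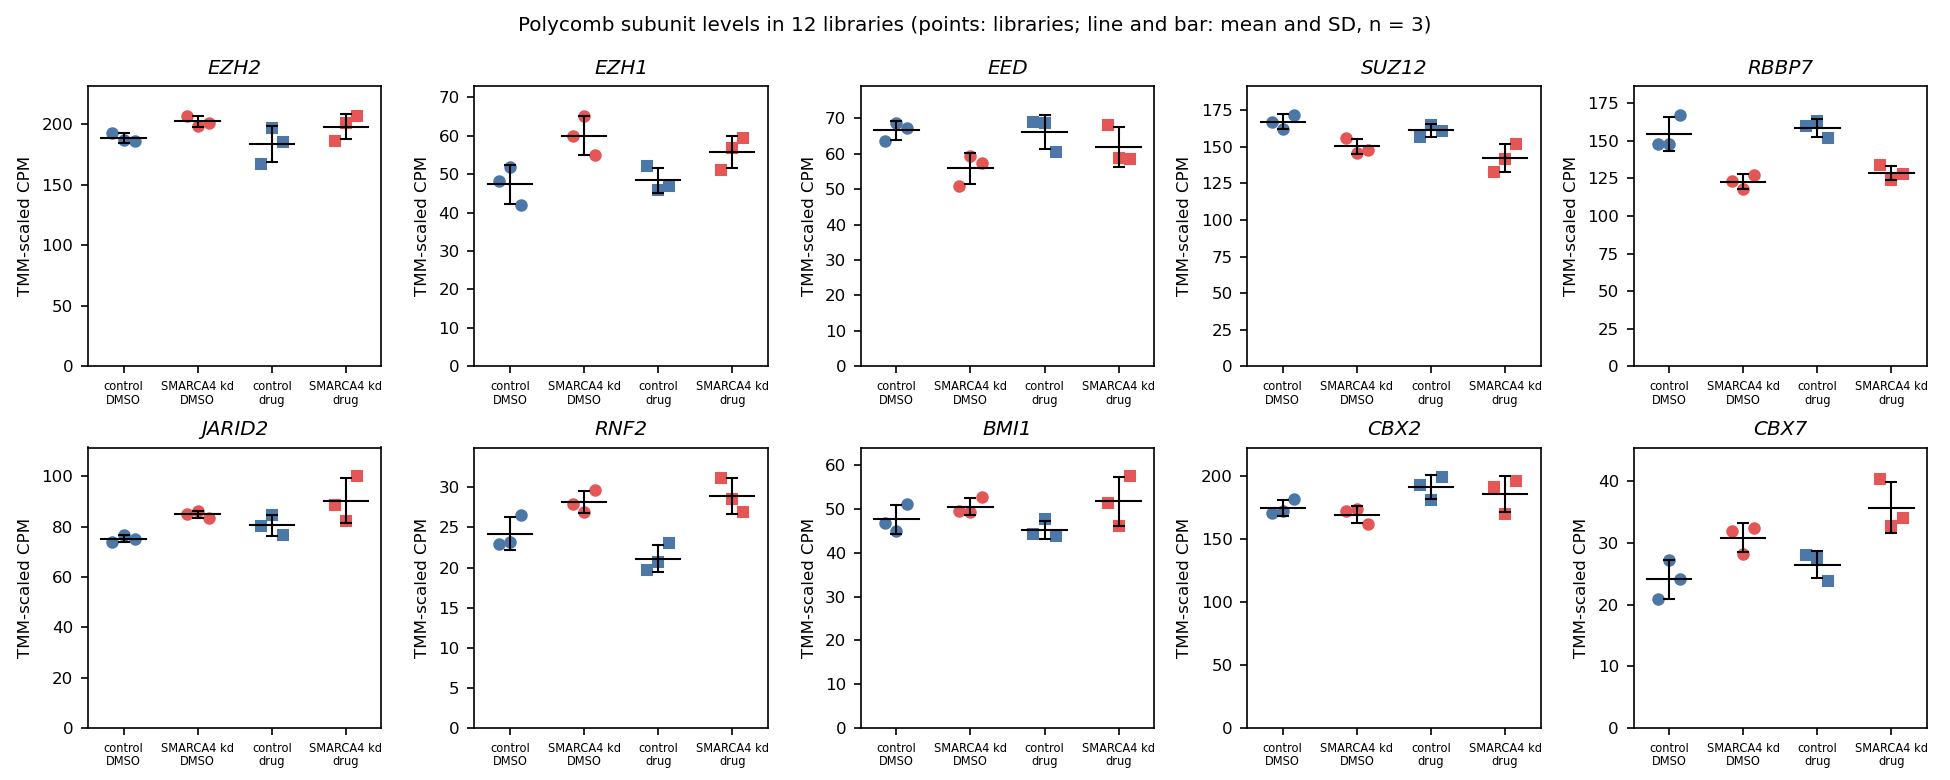
TMM-scaled CPM of the 10 Polycomb genes in each of the 12 libraries, by group, with 1 panel per gene, points for libraries, and lines and bars for the mean and SD of 3. RBBP7 and SUZ12 sit lower and CBX7 higher in both knockdown groups than in the matched controls, and CBX2 overlaps in every such pair.

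Knockdown of SMARCA4 moved Polycomb genes in both directions by small amounts. In DMSO, EZH1, JARID2 and CBX7 rose and EED, SUZ12 and RBBP7 fell, 6 of 10 members, against 31.3% of all genes called (15.1% higher and 16.2% lower) by edgeR's quasi-likelihood test with Benjamini-Hochberg adjustment over 12602 genes at 0.05. Under drug, RNF2 and CBX7 rose and SUZ12 and RBBP7 fell, 4 of 10, against 31.1% of all genes (14.8% higher and 16.3% lower). The median size of change over the members was 0.20 log2 units in DMSO and 0.19 under drug, beside 0.20 and 0.21 over all genes. No member changed by more than 1.37-fold in either treatment. Groups did not overlap for 8 members in DMSO, against 42.9% of all genes, and for 4 under drug, against 41.0%. With library totals in place of TMM the calls were 4 higher and 2 lower in DMSO, and 6 higher and 1 lower under drug, where that scaling moved the median of all genes to 0.08. Without control DMSO replicate 1, the DMSO count was 3.

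**Figure D2:**
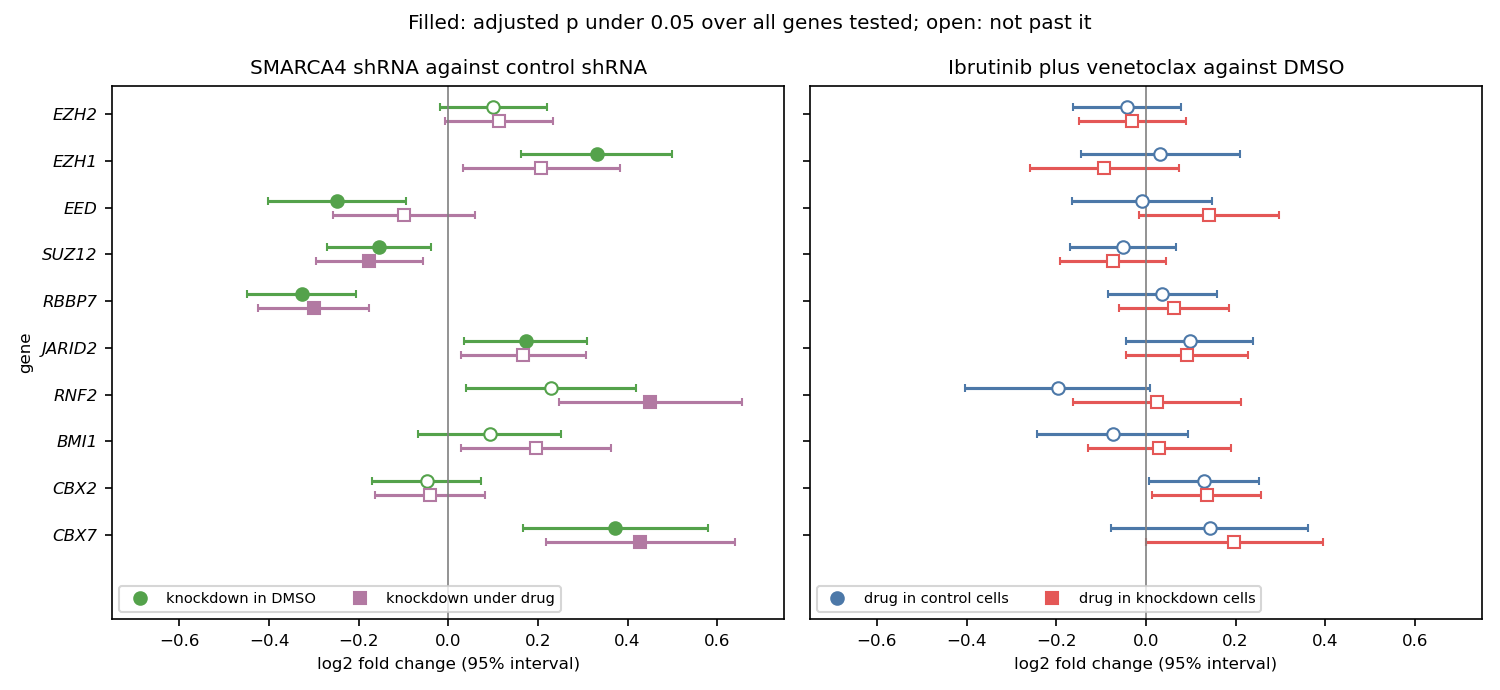
Log2 fold change with its 95% interval for each Polycomb gene, for knockdown against control shRNA on the left and drug against DMSO on the right, with filled symbols for adjusted p under 0.05 over all genes. Filled symbols appear on the left alone, with RBBP7 and SUZ12 below 0 and CBX7 above 0 in both treatments.

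Among the catalytic subunits, EZH1 rose in knockdown cells in DMSO, while EZH2 was not past the threshold in either treatment with TMM scaling. EZH2 stood at 193, 187 and 186 CPM in control DMSO and 207, 198 and 201 in knockdown DMSO libraries. Under drug the values were 167, 197 and 185 in control and 186, 201 and 207 in knockdown libraries. All knockdown libraries were above the controls in DMSO, and the groups overlapped under drug. The log2 fold change of EZH2 was 0.10 (SE 0.06, adjusted p = 0.2 by edgeR) in DMSO and 0.11 (SE 0.06, adjusted p = 0.153) under drug, with 95% intervals reaching at most 0.22 and 0.23. With library totals the value under drug was 0.19 (adjusted p = 0.00959), past the threshold.

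EZH1, the paralog with the weaker methyltransferase activity that is typical of resting cells, stood at 48.2, 51.8 and 41.9 CPM in control DMSO and 59.9, 65.1 and 54.9 in knockdown DMSO libraries. These groups did not overlap, and the log2 fold change was 0.33 (SE 0.08, adjusted p = 0.00217 by edgeR). Under drug the control libraries were at 52.1, 45.9 and 47.0 and the knockdown libraries at 51.1, 56.9 and 59.3, which overlap. That log2 fold change was 0.21 (SE 0.09, adjusted p = 0.0663). Leaving out control drug replicate 1 or knockdown drug replicate 1 brought it past the threshold, at 0.27 each (adjusted p = 0.0361 and 0.0282), as did replicate 3 of either DMSO group (0.22 each, adjusted p = 0.0397 and 0.0469) and scaling by library totals (0.29, adjusted p = 0.0113). The effects in the 2 treatments differed by -0.12 (SE 0.12, adjusted p = 0.976). An annotated pseudogene overlaps EZH1 on the opposite strand and has counts of its own, and the strand setting of the counting is not given in the sources used here.

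Of the other core PRC2 subunits, RBBP7 and SUZ12 fell in both treatments and EED in DMSO. RBBP7 stood at 148, 148 and 167 CPM in control DMSO and 123, 118 and 127 in knockdown DMSO libraries. With drug it stood at 160, 163 and 152 in control and 134, 124 and 128 in knockdown libraries. Every knockdown library was below every control library in both treatments. RBBP7 fell by 0.33 on the log2 scale in DMSO (SE 0.06, adjusted p = 6.28e-05 by edgeR) and by 0.30 under drug (SE 0.06, adjusted p = 0.000245), and it kept both calls in all alternatives and with each library left out. Its gene overlaps TXLNG on the opposite strand.

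SUZ12, the subunit that holds PRC2 together, stood at 167, 162 and 172 CPM in control DMSO and 156, 146 and 148 in knockdown DMSO libraries. Under drug the values were 157, 165 and 161 in control and 133, 142 and 152 in knockdown libraries. The groups did not overlap in either treatment. SUZ12 fell by 0.15 in DMSO (SE 0.06, adjusted p = 0.0374 by edgeR) and by 0.18 under drug (SE 0.06, adjusted p = 0.02). The DMSO call was lost without control replicate 1 (adjusted p = 0.117) or 3 (0.16), without knockdown replicate 2 (0.129) or 3 (0.139), and under 4 other settings. The call under drug was lost without control replicate 2 (adjusted p = 0.0756), without knockdown replicate 1 (0.164) or 2 (0.0513), and with library totals (0.209).

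EED, which binds the methylated lysine and stimulates the enzyme, stood at 63.7, 68.7 and 67.2 CPM in control DMSO and 50.9, 59.2 and 57.5 in knockdown DMSO libraries, without overlap. It fell by 0.25 (SE 0.08, adjusted p = 0.0112 by edgeR), a call lost without control replicate 2 (adjusted p = 0.0531) or knockdown replicate 1 (0.0822). Under drug EED was at 69.0, 68.7 and 60.6 in control and 68.2, 58.8 and 58.4 in knockdown libraries. There the groups overlapped, and the log2 fold change was -0.10 (SE 0.08), with adjusted p = 0.366 by edgeR. The difference between the treatments' effects was 0.15 (SE 0.11, adjusted p = 0.954).

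JARID2, an accessory subunit with DNA-binding domains, was at 74.0, 76.6 and 75.1 CPM in control DMSO and 85.0, 86.1 and 83.5 in knockdown DMSO libraries. Drug-treated libraries were at 80.1, 84.7 and 76.6 in control and 88.5, 82.4 and 100 in knockdown libraries, which overlap. Its log2 fold change was 0.17 in both treatments (SE 0.07 each), with adjusted p = 0.0491 in DMSO and 0.063 under drug by edgeR. The DMSO call was the nearest to the threshold of the 6. It was lost without any 1 of the 6 DMSO libraries (adjusted p from 0.0624 to 0.114), without control drug replicate 1 or 2, and under 3 other settings. Under drug JARID2 was past the threshold with library totals (0.25, adjusted p = 0.00662), with the filter of 5 CPM (adjusted p = 0.0442), and without control DMSO replicate 3 (0.0487), control drug replicate 2 (0.0471) or knockdown drug replicate 2 (0.0162).

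In PRC1, the ubiquitin ligase subunit RNF2 was higher in knockdown cells. It stood at 22.9, 23.2 and 26.6 CPM in control DMSO and 27.9, 26.9 and 29.7 in knockdown DMSO libraries. With drug, RNF2 stood at 19.7, 20.7 and 23.0 in control and 31.2, 28.6 and 26.9 in knockdown libraries. No knockdown library overlapped its controls in either treatment. RNF2 rose under drug by 36.7% (log2 fold change 0.45, SE 0.10, adjusted p = 0.000702 by edgeR). In DMSO the log2 fold change was 0.23 (SE 0.09, adjusted p = 0.0596), and it was past the threshold without control DMSO replicate 3 (0.31, adjusted p = 0.0248), without knockdown drug replicate 1 (0.24, adjusted p = 0.0485) and under 5 of the settings planned. The effects in the 2 treatments differed by 0.22 (SE 0.14, adjusted p = 0.949).

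BMI1, also named PCGF4 and the classical partner of RNF2, was at 46.7, 44.9 and 51.2 CPM in control DMSO and 49.5, 49.3 and 52.7 in knockdown DMSO libraries. With drug the values were 44.3, 47.7 and 43.8 in control and 51.4, 46.2 and 57.5 in knockdown libraries. Groups overlapped in both treatments. The log2 fold change was 0.09 (SE 0.08, adjusted p = 0.406 by edgeR) in DMSO and 0.20 (SE 0.08, adjusted p = 0.0686) under drug, where leaving out knockdown replicate 2 gave 0.27 (adjusted p = 0.0171) and library totals gave 0.28 (adjusted p = 0.0102). BMI1 shares its locus and strand with the readthrough gene COMMD3-BMI1, so reads at a shared 3' end cannot be assigned to either.

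Of the chromodomain subunits, CBX7 rose in both treatments and CBX2 was not past the threshold in either. CBX7, a reader of methylated lysine 27, stood at 20.9, 27.3 and 24.1 CPM in control DMSO and 32.0, 28.2 and 32.4 in knockdown DMSO libraries. With drug, CBX7 stood at 28, 27.5 and 23.9 in control and 40.4, 32.7 and 34.0 in knockdown libraries. All knockdown libraries were above their controls. CBX7 rose by 29.5% in DMSO (log2 fold change 0.37, SE 0.10, adjusted p = 0.00471 by edgeR) and by 34.5% under drug (0.43, SE 0.10, adjusted p = 0.00169). Without control DMSO replicate 1, its lowest library, the DMSO value was 0.29 (adjusted p = 0.0532).

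CBX2, the paralog known for compacting chromatin, was at 171, 172 and 182 CPM in control DMSO and 172, 174 and 162 in knockdown DMSO libraries. With drug, CBX2 was at 193, 181 and 199 in control and 191, 170 and 196 in knockdown libraries. Groups overlapped in both treatments, and the 95% intervals of the log2 fold change ran from -0.17 to 0.07 in DMSO and from -0.16 to 0.08 under drug. The ratio of CBX7 to CBX2 was 0.122, 0.159 and 0.133 in control DMSO and 0.186, 0.162 and 0.200 in knockdown DMSO libraries. With drug it was 0.145, 0.152 and 0.120 in control and 0.212, 0.193 and 0.173 in knockdown libraries. The knockdown libraries were above their controls in both treatments.

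An average of the knockdown effect over both treatments, 6 libraries against 6, was added after the data were seen. It called 9 of the 10 members, 6 higher and 3 lower, against 44.3% of all genes (21.7% higher and 22.6% lower), and rests on the same libraries as the results above. By edgeR, EZH2 was then at 0.11 (SE 0.04, adjusted p = 0.0363), BMI1 at 0.14 (SE 0.06, adjusted p = 0.0385) and RNF2 at 0.34 (SE 0.07, adjusted p = 0.000123). CBX2 was the member not called, at -0.04 (SE 0.04, adjusted p = 0.417).

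Pairs of subunits that take the same place in a complex were compared as ratios of CPM within each library. The pairs were chosen after the values were seen, so the ratios carry no test, and the CBX7 ratios share 1 numerator. EZH1 to EZH2 averaged 0.251 ± 0.0261 (SD, n = 3) in control DMSO and 0.297 ± 0.0287 in knockdown DMSO libraries, and 0.266 ± 0.0407 and 0.281 ± 0.00668 under drug. These libraries overlap in both treatments. RBBP7 to RBBP4 averaged 1.77 ± 0.230 in control DMSO and 1.31 ± 0.0822 in knockdown DMSO libraries, and 1.87 ± 0.127 and 1.5 ± 0.172 under drug, without overlap. RBBP4 itself had log2 fold changes of 0.09 and 0.02, not past the threshold. RNF2 to RING1 averaged 0.681 ± 0.0650 and 0.6 ± 0.0548 in DMSO, and 0.661 ± 0.0533 and 0.698 ± 0.00542 under drug, with overlap in both, since RING1 was higher in knockdown cells too.

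The widest shift among these ratios was between PCGF5 and BMI1, alternative PCGF partners of the RING subunits. PCGF5 to BMI1 was 0.610, 0.589 and 0.594 in control DMSO and 1.26, 1.26 and 1.27 in knockdown DMSO libraries. With drug it was 0.584, 0.612 and 0.572 in control and 1.19, 1.18 and 1 in knockdown libraries. In CPM, BMI1 exceeded PCGF5 in every control library, and the ratio in knockdown libraries was 1 or more. Unequal capture between genes was not measured, and BMI1 reads may include COMMD3-BMI1, so a ratio of 1 need not mean equal transcript numbers. CBX7 was also higher relative to CBX6 and CBX8 in knockdown cells, with mean log2 differences over both treatments of 0.62 and 0.64.

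**Figure D3:**
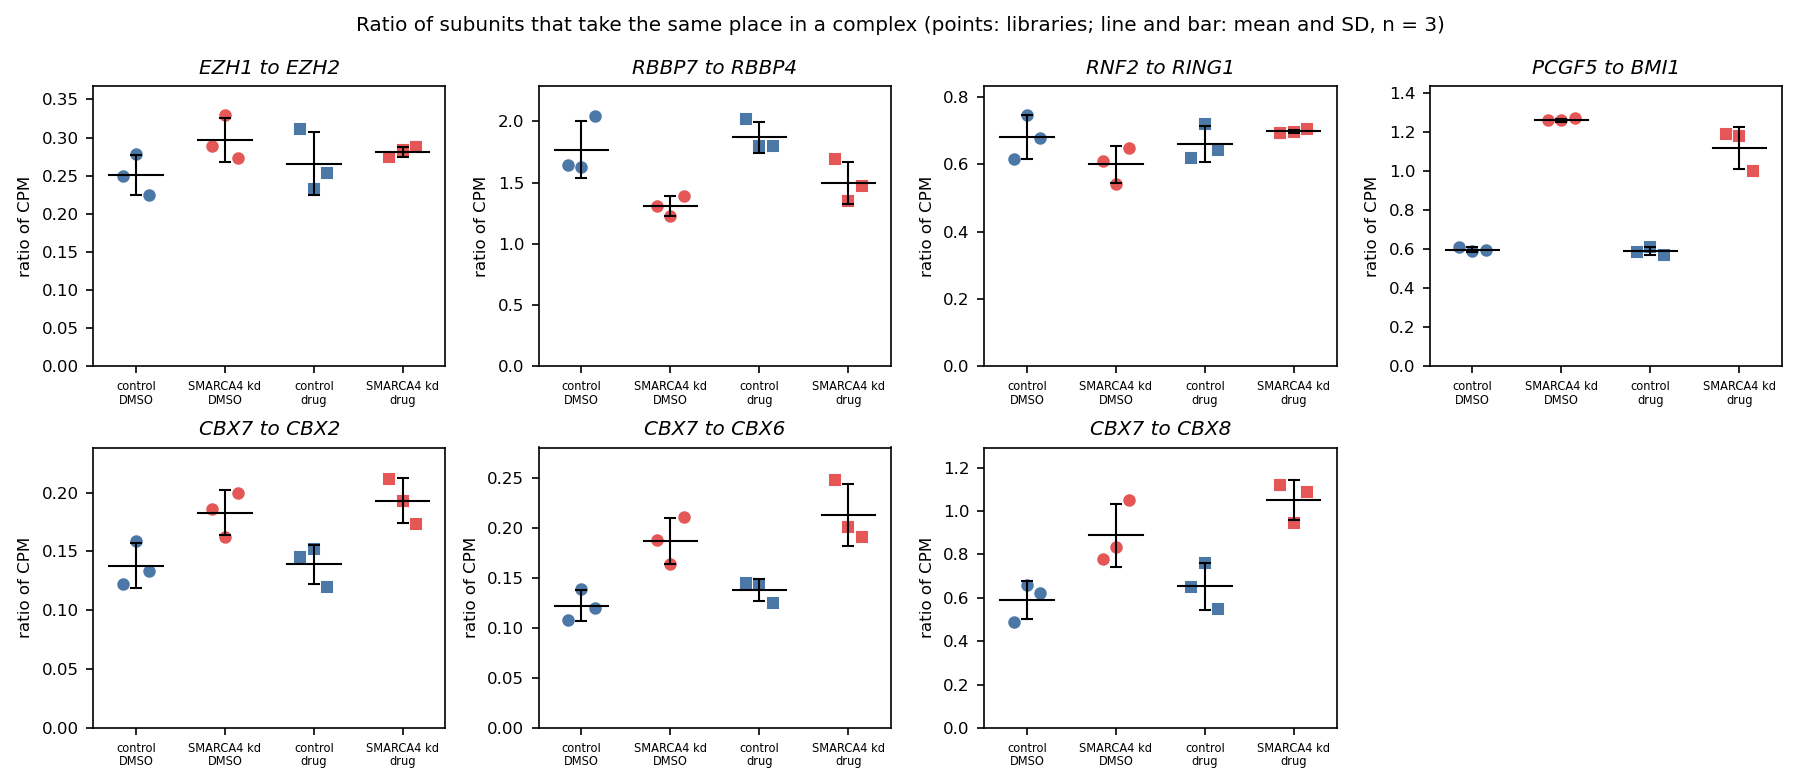
Ratio of CPM between paralogous Polycomb subunits in each of the 12 libraries, with 1 panel per pair, points for libraries, and lines and bars for the mean and SD of 3. PCGF5 to BMI1 goes from 0.572 to 0.612 in control to between 1 and 1.27 in knockdown libraries, and RNF2 to RING1 overlaps between the shRNAs.

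Drug treatment called none of the 10 Polycomb genes by edgeR's quasi-likelihood test, in control or knockdown cells, against 1.29% of all genes in each. At an unadjusted p under 0.05 there was 1 member in control and 2 in knockdown cells. DESeq2 and limma-voom called 0 as well. The changes nearest the threshold were those of CBX2, at 0.13 (SE 0.06, adjusted p = 0.46) in control and 0.14 (SE 0.06, adjusted p = 0.399) in knockdown cells. CBX7 had 0.14 (SE 0.11, adjusted p = 0.745) in control and 0.20 (SE 0.10, adjusted p = 0.476) in knockdown cells. RNF2 had -0.20 (SE 0.10, adjusted p = 0.538) in control and 0.03 (SE 0.09, adjusted p = 0.98) in knockdown cells. Over the members, 95% intervals reached from -0.40 to 0.36 in control and from -0.26 to 0.39 in knockdown cells. Smaller drug effects were not detectable with 3 libraries a group. Groups did not overlap for JARID2 in control cells (14.6% of all genes) and for CBX7 in knockdown cells (15.2% of all genes). For JARID2 the gap was smaller than the printed digits, since the nearest DMSO and drug libraries both round to 76.6 CPM.

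The interaction, in which the drug effect of control cells is subtracted from that of knockdown cells, called 0 of 10 members, against 0.0238% of all genes, with 0 at an unadjusted p under 0.05 and 0 by DESeq2 or limma-voom. Its estimates ran from -0.12 for EZH1 to 0.22 for RNF2, and 95% intervals from -0.37 to 0.50. A difference between the knockdown effects in DMSO and under drug was thus not shown for any member, including EZH1, EED, JARID2 and RNF2, each called in 1 treatment.

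The remaining subunits were read from lists, and PRC1 core genes held the largest change of any Polycomb subunit that passed the test in both treatments. Of 14 other PRC1 core genes, 5 rose and 3 fell in DMSO, and 4 rose and 4 fell under drug, 57.1% in each, against the 31.3% and 31.1% of all genes, with median log2 fold changes of 0.24 and 0.21, beside 0.0038 and 0.0018 over all genes. Library totals gave 7 higher and 0 lower under drug, and 5 and 2 in DMSO. PCGF5, which scaffolds a variant PRC1, was at 28.5, 26.4 and 30.4 CPM in control DMSO and 62.3, 62.1 and 67.0 in knockdown DMSO libraries. In drug-treated cells PCGF5 was at 25.9, 29.2 and 25.0 in control and 61.4, 54.5 and 57.5 in knockdown libraries. PCGF5 rose 2.25-fold in DMSO (log2 fold change 1.17, SE 0.08, adjusted p = 2.22e-13 by edgeR), and under drug by a similar amount (1.12, SE 0.08, adjusted p = 2.94e-12).

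Its close paralog PCGF3 rose by 0.34 (SE 0.07) in DMSO and 0.30 (SE 0.07) under drug. RING1, the alternative catalytic partner, rose by 0.39 (SE 0.09) and 0.36 (SE 0.09). SCML2, a binding partner of PRC1, rose by 0.56 (SE 0.17) and 1.04 (SE 0.19) from 29 to 161 counts a library, and its DMSO call was lost without control replicate 1 (adjusted p = 0.0567). The chromodomain paralog CBX6 fell by 0.25 (SE 0.06) and 0.19 (SE 0.06), the latter lost with library totals (adjusted p = 0.142) and without knockdown drug replicate 1 (0.0631). CBX6 thus fell where CBX7 rose.

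**Figure D4:**
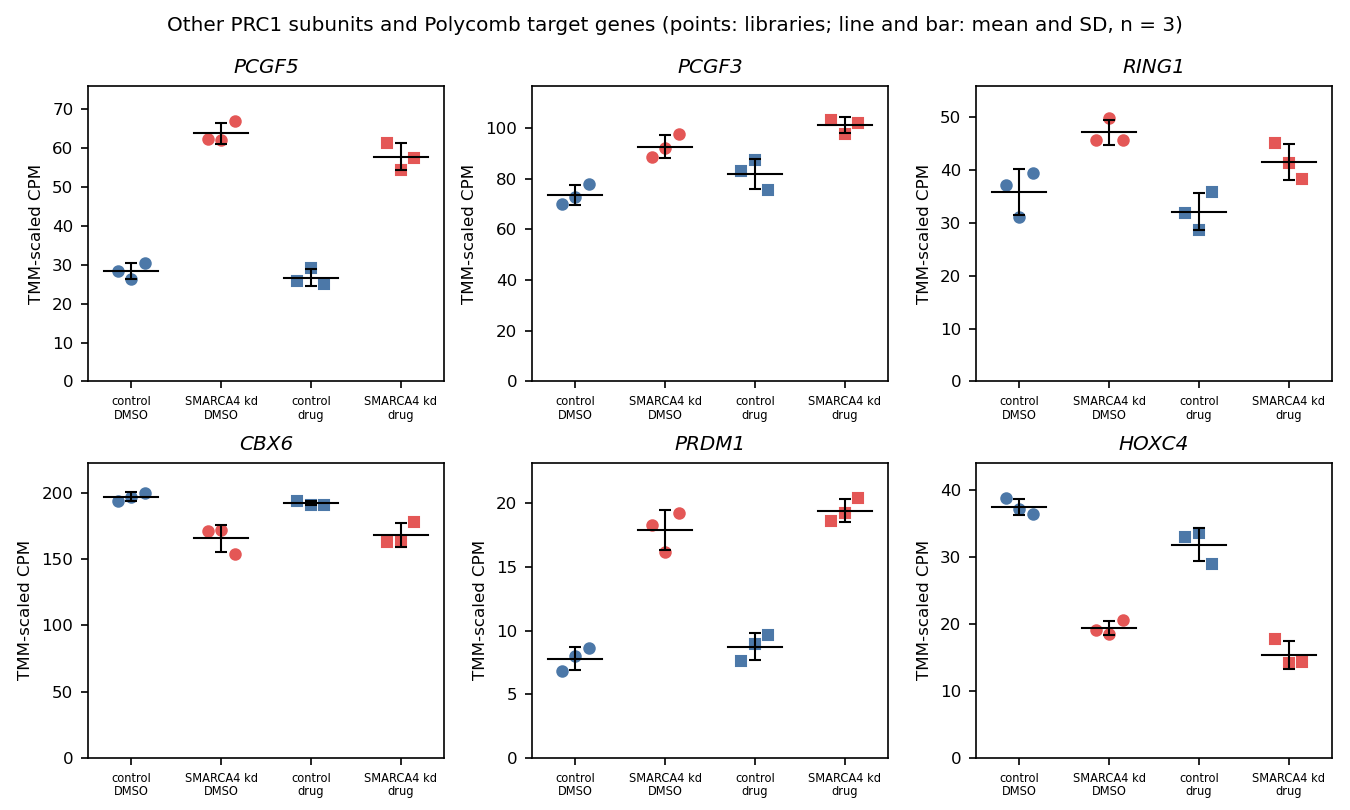
TMM-scaled CPM of 4 other PRC1 subunits and 2 Polycomb target genes in each of the 12 libraries, with points for libraries, and lines and bars for the mean and SD of 3. PCGF5 and PRDM1 sit higher and HOXC4 lower in both knockdown groups, without overlap.

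Of the other PRC2 genes, 7 of 8 listed were analysed, with 1 lower in DMSO (14.3%) and 1 higher and 1 lower under drug (28.6%), beside 31.3% and 31.1% of all genes, with medians of 0.09 and 0.02. PHF19, which guides PRC2 to unmethylated CpG islands, was at 45.2, 41.8 and 45 CPM in control DMSO and 32.8, 34.6 and 38.0 in knockdown DMSO libraries, and fell by 0.31 (SE 0.08, adjusted p = 0.00265 by edgeR). Under drug it fell by 0.26 (SE 0.08, adjusted p = 0.0194) and its paralog MTF2 rose by 0.18 (SE 0.06, adjusted p = 0.0262). Both calls under drug were lost without control drug replicate 1 or 3 or knockdown drug replicate 1 or 3, and PHF19's also with library totals, which gave 3 higher and 0 lower in this list. The count under drug was 0 without control drug replicate 1 or 3 or knockdown drug replicate 1.

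Variant PRC1 partners, 12 of 13 analysed, had 1 higher and 3 lower in DMSO (33.3%), and 1 higher and 2 lower under drug (25%), near the 31.3% and 31.1% of all genes, with medians of -0.10 and -0.06. Library totals gave 1 and 2 in DMSO and 1 and 1 under drug. AUTS2, which joins PCGF3 and PCGF5 complexes, rose by 0.31 (SE 0.06) in DMSO and 0.27 (SE 0.06) under drug. RYBP, which replaces CBX proteins in variant PRC1, fell by 0.20 (SE 0.07, adjusted p = 0.0357 by edgeR) and 0.30 (SE 0.08, adjusted p = 0.00278). The DMSO call of RYBP was lost without control DMSO replicate 3 (-0.11, adjusted p = 0.344), knockdown DMSO replicate 1 (0.079) or 2 (0.178), or knockdown drug replicate 1 (0.0512), and with library totals (0.0618), the DESeq2 Wald test (0.0619) or 2 groups alone (0.052). KDM2B, which brings PRC1 to CpG islands, fell by 0.20 (SE 0.06) and 0.17 (SE 0.06), and its DMSO call was lost without control DMSO replicate 1 or 2 or knockdown DMSO replicate 3 (adjusted p from 0.0661 to 0.0894). Its call under drug was lost with 7 of the 12 libraries left out in turn, with library totals (adjusted p = 0.308), with no filter (0.052) and with 2 groups alone (0.0573). Without control DMSO replicate 1 or knockdown DMSO replicate 3, the DMSO count for this list was 2.

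**Figure D5:**
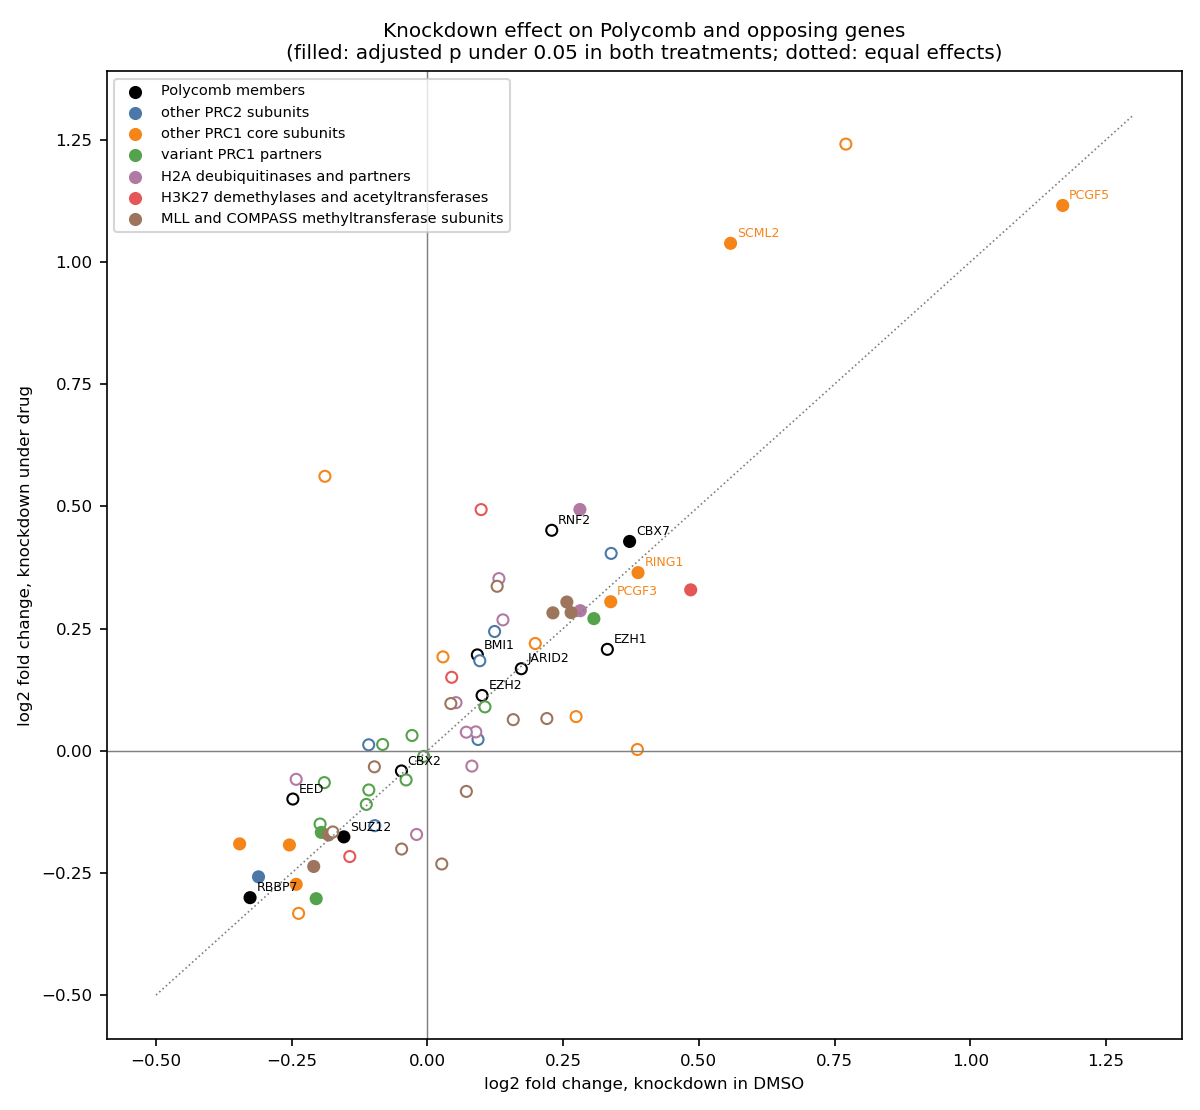
Log2 fold change of knockdown in DMSO (horizontal) against knockdown under drug (vertical) for Polycomb and opposing genes, with colours for the list and filled points for adjusted p under 0.05 in both. PCGF5 lies far to the upper right at 1.17 and 1.12, while the 10 members lie between -0.33 and 0.45 on both axes. Another PRC1 core gene, with an open point, lies higher on the vertical axis, at 1.24.

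Enzymes that remove or oppose the Polycomb marks were also mixed. Of 10 H2A deubiquitinase genes and partners analysed, 2 rose and 1 fell in DMSO, and 3 rose and 0 fell under drug, 30% in each, near the 31.3% and 31.1% of all genes, with medians of 0.09 and 0.07. OGT, the O-GlcNAc transferase found with BAP1, rose by 0.28 (SE 0.08) in DMSO and 0.29 (SE 0.08) under drug, and MBD6 by 0.28 (SE 0.09) and 0.49 (SE 0.10). Both DMSO calls were lost without control DMSO replicate 1 (adjusted p = 0.0637 and 0.128), which left 1 gene of this list called. That of OGT was also lost without knockdown DMSO replicate 3 (0.0635), and that of MBD6 without knockdown DMSO replicate 1 (0.085) or 2 (0.0533). ASXL1, a BAP1 cofactor, rose by 0.35 (SE 0.07, adjusted p = 9.88e-05 by edgeR) under drug, and USP16 fell by 0.24 (SE 0.06, adjusted p = 0.00198) in DMSO. ASXL1 was also called for drug in control cells, where it fell by 0.26 (adjusted p = 0.0394), a call lost with 6 of the 12 libraries left out in turn.

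KDM6B, a demethylase of lysine 27, rose by 0.49 (SE 0.12, adjusted p = 0.00145 by edgeR) in DMSO and 0.33 (SE 0.12, adjusted p = 0.0378) under drug. The call under drug was lost without control drug replicate 2 or 3 or knockdown drug replicate 1 or 2 (adjusted p from 0.0899 to 0.202), and with DESeq2 or limma-voom. Its paralog KDM6A rose under drug by 0.49 (SE 0.17, adjusted p = 0.0297), lost without control drug replicate 1 or 3 or knockdown drug replicate 2 and with DESeq2, and CREBBP, an acetyltransferase of the same residue, fell by 0.22 (SE 0.07, adjusted p = 0.0125), lost without control drug replicate 1 or knockdown drug replicate 1 and with library totals. This list of 4 genes had 1 call in DMSO (25%) and 3 under drug (75%), beside 31.3% and 31.1% of all genes, with medians of 0.07 and 0.24, and the count under drug was 1 without control drug replicate 1 or 3 or knockdown drug replicate 1 or 2, and by DESeq2. Library totals gave 3 higher and 0 lower under drug.

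Of 14 MLL and COMPASS genes, which methylate lysine 4 of histone H3 and act as Trithorax opponents of Polycomb, 3 rose and 2 fell in DMSO (35.7%), and 4 rose and 2 fell under drug (42.9%), beside 31.3% and 31.1% of all genes, with medians of 0.06 and 0.02. KMT2C rose by 0.26 and 0.30, SETD1B by 0.23 and 0.28, and PAXIP1 by 0.26 and 0.28, in DMSO and under drug. MEN1, the menin scaffold, fell by 0.21 and 0.24. SE values of these were from 0.06 to 0.08. The DMSO calls of KMT2C, SETD1B and MEN1 each rested on a single library, that of KMT2C on control replicate 3 (adjusted p = 0.0676 without it), of SETD1B on knockdown replicate 2 (0.056) and of MEN1 on knockdown replicate 3 (0.108). Without knockdown DMSO replicate 3 the DMSO count for the list was 3.

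A list of textbook Polycomb target genes, HOX genes, cell cycle inhibitors, PRDM1 and IRF4, had 45 names, of which 15 were tested. There were 3 higher and 1 lower in DMSO (26.7%), and 2 higher and 1 lower under drug (20%), beside 31.3% and 31.1% of all genes, with medians of 0.14 and 0.07. Library totals gave 4 higher and 1 lower under drug. No chromatin mark was measured, so whether Polycomb occupies these genes in Z-138 was not tested. PRDM1, which encodes the plasma cell regulator BLIMP1, was at 6.80, 7.97 and 8.59 CPM in control DMSO and 18.3, 16.2 and 19.2 in knockdown DMSO libraries. With drug the values were 7.58, 8.91 and 9.67 in control and 18.6, 19.2 and 20.4 in knockdown libraries. PRDM1 rose 2.33-fold (log2 fold change 1.22, SE 0.13, adjusted p = 4.58e-09 by edgeR) in DMSO and 2.23-fold (1.16, SE 0.13, adjusted p = 2.51e-08) under drug. PRDM1 and ATG5 overlap on opposite strands.

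HOXC4 went the other way. It was at 38.8, 37.2 and 36.4 CPM in control DMSO and 19.1, 18.5 and 20.6 in knockdown DMSO libraries, and under drug at 32.9, 33.6 and 29 in control and 17.8, 14.1 and 14.3 in knockdown libraries. HOXC4 fell by 0.94 (SE 0.09, adjusted p = 1.54e-09 by edgeR) in DMSO and 1.05 (SE 0.10, adjusted p = 1.88e-09) under drug. It overlaps HOXC6 and HOXC5 on the same strand, so its counts are uncertain between them. HOXA5 rose by 0.85 (SE 0.17, adjusted p = 0.000235) in DMSO from low counts of 35 to 171 a library, and had 0.34 (SE 0.17, adjusted p = 0.138) under drug. HOXA5 also overlaps HOXA3 on the same strand. CDKN1C, an inhibitor of cyclin-dependent kinases, rose by 0.38 (SE 0.06, adjusted p = 4.7e-06) in DMSO and had 0.09 (SE 0.06, adjusted p = 0.258) under drug. In control cells drug raised CDKN1C by 0.26 (adjusted p = 0.0111), lost without control DMSO replicate 1 or 2 or control drug replicate 1 or 3. IRF4 rose under drug by 0.19 (SE 0.07, adjusted p = 0.0315), lost without control drug replicate 2 or knockdown drug replicate 1 and with DESeq2 (adjusted p = 0.051).

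Proliferation genes were read in the same way. Of 27, 2 rose and 12 fell in DMSO (51.9%) and 2 rose and 7 fell under drug (33.3%), against 31.3% and 31.1% of all genes, with medians of -0.14 and -0.11. Library totals gave 3 higher and 5 lower under drug. Their summed level, in CPM of library totals, was 6950 to 7040 in control DMSO and 6190 to 6490 in knockdown DMSO libraries. Under drug it was 6900 to 6970 in control and 6430 to 6730 in knockdown libraries. PLK1 fell by 0.70 (SE 0.08) and 0.61 (SE 0.09) and AURKA by 0.57 (SE 0.06) and 0.34 (SE 0.06). RRM2 and BUB1 rose in both treatments, and the DMSO call of RRM2 was lost without control DMSO replicate 1 or knockdown DMSO replicate 1 or 2 (adjusted p from 0.0669 to 0.0878). The part of proliferation in the changes of EZH1, RBBP7, SUZ12 and the other members was not tested.

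Markers of the labelled cell type were present. Of 8 B cell and mantle cell lymphoma markers, 7 were analysed, with 1 higher and 6 lower in DMSO and 1 higher and 5 lower under drug, 100% and 85.7% beside 31.3% and 31.1% of all genes. SOX11 rose by 0.92 (SE 0.05) and 0.81 (SE 0.05), while MS4A1, which encodes CD20, fell by 1.36 (SE 0.06) and 1.49 (SE 0.06). Sums in this paragraph are CPM of library totals without TMM factors. The summed level of these markers was 4870 to 5680 CPM in control DMSO, 4350 to 4520 in knockdown DMSO, 5180 to 5400 in control drug and 4290 to 4990 in knockdown drug libraries. Of 8 T and NK cell markers, CD3G and PRF1 were analysed, and their sum was 16.2 to 18.2 and 14.9 to 19.1 CPM in control and 1.53 to 2.42 and 1.58 to 3.43 in knockdown libraries. Both were called lower in DMSO (100%) and CD3G alone under drug (50%), beside 31.3% and 31.1% of all genes. CD3G fell in both treatments, with log2 fold changes of -3.28 (SE 0.18) in DMSO and -3.11 (SE 0.20) under drug. PRF1 was called in DMSO alone, at few counts, a call lost without control DMSO replicate 2 (adjusted p = 0.0698 by edgeR). None of 6 monocyte markers and 1 of 7 fibroblast and epithelial markers, COL1A1, was among the genes analysed. COL1A1 fell by 0.50 (SE 0.10) in DMSO and 0.79 (SE 0.11) under drug, with sums of 19.5 to 25.5 CPM in control and 14.5 to 15.7 in knockdown libraries. All libraries are labelled as the Z-138 line, and the labels name no other cell type. In bulk samples, fewer cells with a marker's RNA and less of it per cell cannot be told apart. The part of these markers in the Polycomb results was not tested.

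Genes whose levels were most like those of 3 members were sought by Pearson's r of log2 CPM over the 12 libraries, among 4423 genes whose mean log2 CPM was 5 or more. RBBP7 was most like PPIF (0.978), GLUL (0.972) and POLR3K (0.968). EZH1 was most like QSER1 (0.971), ZNF655 (0.928) and ZNF148 (0.917), and CBX7 most like TET2 (0.944), OGT (0.942) and GTF2H5 (0.942). An r above 0.9 was reached by 160 genes for RBBP7, 19 for CBX7 and 7 for EZH1. The 12 libraries fall into 2 shRNA groups, which sets much of such an r, so these values are a description.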

How the data were processed

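The 3' ends of mRNA were profiled in 12 libraries of Z-138. The authors deposited whole-number gene counts with no normalization, in a single table. Per the submitters' processing notes, bcl2fastq 2.17.1.14, HISAT2, HTSeq and hg19 were used. The annotation, the strand setting and other versions: not given in the sources used here. Of 13820 rows, 1656 lacked a symbol. Columns were matched by name. One column named the control shRNA and replicate 1 without a treatment, and was taken as control drug replicate 1 because no other column named that sample.

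Genes were kept by filterByExpr (minimum count 10, minimum total 15) and scaled by TMM. All 12 libraries were fitted together in edgeR 4.0.16 (R 4.3.3) by quasi-likelihood, each group with its own coefficient, and two-sided F tests were adjusted by Benjamini-Hochberg over 12602 genes at 0.05. Degrees of freedom were 8 (residual) and 22.46 (prior), and the biological coefficient of variation was 5.692%. SE is the size of the log2 fold change over the square root of F, and intervals are 95%. "Rose" and "fell" mark genes past the threshold. The script was tested on simulated data. Library totals were 7279503 to 22528537 counts. Replicates differed by more than sampling noise (chi-square per degree of freedom 1.85 to 4.75).

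The members and the 12 gene lists were chosen with earlier results of these data known. Genes were named by rule: the members, SMARCA4, up to 4 genes per list with the smallest adjusted p in each knockdown comparison, and all genes past the threshold for drug. RBBP4, CBX8, RRM2, BUB1 and the ratio pairs were added with values already known. A few genes the rule picks are not reported here. Alternatives were DESeq2 1.42.0 size factors or its Wald test, library totals, no filter, 5 CPM in 3 libraries, limma-voom (limma 3.58.1), 2 groups alone, the replicate number as a block, no ribosomal RNA rows, and each library left out. Thinning the deepest library and averaging both treatments were added after seeing the data. Overlapping genes are those of GENCODE annotation, and promoter windows those of RefSeq GRCh38.p14, used by symbol and not by position since the counts are on hg19.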

Additional observations from a re-analysis of the deposited data

How the results depend on the processing

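The 12 library-by-library omissions gave 3 to 7 members past the threshold for knockdown in DMSO, the lowest without control DMSO replicate 1, and 4 to 6 for knockdown under drug. Knockdown under drug gave 7 members with library totals, which moved the median of all genes, and 9 with both treatments averaged, which uses more libraries. The calls of RBBP7 in both treatments, EZH1 in DMSO, and RNF2 and CBX7 under drug held in all settings run. The cause of other lost calls was not tested. Both drug comparisons and the interaction gave 0 members under every setting. Without control drug replicate 1, the library matched by elimination, 5 members were called for knockdown under drug and 106 genes for drug in control cells, against 163 with it. Leaving out any other library of the drug comparison in control cells gave 112 to 160 genes. The labels do not state that replicate numbers pair libraries. Correlations of deviations from group means between libraries of the same number ran from -0.116 to 0.0821, and 0 of 12 were over 0.1. Low values do not show whether libraries were prepared in pairs. With the replicate block 5 members were called in DMSO and 4 under drug, of 3822 and 3827 genes, and JARID2 lost its DMSO call (0.17, adjusted p = 0.0659 by edgeR).

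Signs turned for log2 fold changes that were not called in any such setting. With library totals, CBX2 was 0.041 for knockdown under drug, EZH2 0.0059 for drug in knockdown cells, and SUZ12 0.038 and JARID2 0.0551 for the interaction. Leaving out each library in turn gave ranges that cross 0. For knockdown under drug, CBX2 ran from -0.0821 to 0.0205. For drug in control cells, EZH2 ran from -0.0983 to 0.0156, EZH1 from -0.0487 to 0.098 and EED from -0.045 to 0.0438. In knockdown cells the drug effect ran from -0.062 to 0.0097 for EZH2, from -0.0568 to 0.1054 for BMI1 and from -0.0325 to 0.0767 for RNF2. The interaction ran from -0.0468 to 0.0672 for EZH2, from -0.0727 to 0.0212 for SUZ12, from -0.0866 to 0.0576 for JARID2, from -0.0337 to 0.0577 for RBBP7, from -0.0352 to 0.0675 for CBX2 and from -0.0399 to 0.1508 for CBX7. RNF2 and CBX7 had the lowest counts of the members and the largest SE in each comparison, and whether depth sets that SE was not tested.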
